A study of Bubalus bubalis with 6 samples.

Results

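A set of 10 transcription factors, grouped here under the heading of mesenchymal factors, were followed through the myogenic differentiation of buffalo muscle stem cells (MuSCs). They were taken by symbol from the gene table: SNAI1, SNAI2, TWIST1, TWIST2, ZEB1, ZEB2, PRRX1, TCF21, OSR1 and TCF4. All 10 were listed once among 24616 genes, and 9 of them reached the 10 counts in total over the 6 samples that were required for testing, as did 15576 genes of the table. TCF21 did not. The 3 GM samples were MuSCs proliferating in growth medium (high-glucose DMEM with fetal bovine serum), and the 3 DM samples were MuSCs switched to differentiation medium (DMEM with horse serum) near confluence. Both groups came from fetal longissimus muscle of water buffalo digested with collagenase and trypsin, a primary preparation rather than a cloned line. The labels do not say whether the samples were separate cultures or animals, so p-values measure the spread between these samples, which may be technical.

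SNAI, TWIST and ZEB proteins are best known for the epithelial-mesenchymal transition, in which they bind E-box sequences and silence epithelial genes such as the one for E-cadherin. SNAI and ZEB proteins bind DNA through zinc fingers, whereas TWIST proteins are basic helix-loop-helix (bHLH) factors that pair with E proteins, the class to which TCF4 belongs. MyoD and myogenin need the same E proteins, and TWIST and ZEB1 are known to hold back muscle genes in myoblasts. PRRX1 (a paired-related homeobox factor), OSR1 (an odd-skipped zinc finger factor) and TCF21 (a bHLH factor) are known from limb, connective tissue and fibroblast precursors.

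None of the 9 tested factors was called differentially expressed between DM and GM samples by edgeR, which required a log2 fold change beyond 1 in either direction together with an adjusted p-value under 0.05. Of all tested genes, 25.3% were called (15.0% higher and 10.3% lower in DM samples). DESeq2 also called 0. Changes smaller than this limit were nevertheless detected: 8 of the 9 had an unadjusted p-value under 0.05, against 66.5% of all tested genes, and 7 had an adjusted p-value under 0.05 in edgeR, against 63.0% of all tested genes (31.6% higher, 31.4% lower). SNAI2, TWIST2, ZEB2, PRRX1, TWIST1 and TCF4 were the 6 that rose in DM samples and ZEB1 the 1 that fell, whereas SNAI1 and OSR1 did not pass. Without DM replicate 3, which stands apart as described further on, 6 were higher and 1 was lower, with OSR1 in place of TCF4. Leaving out any other single sample gave 4 or 5 higher and 1 or 2 lower. With library size alone 4 were higher and 2 lower. The shares of all tested genes that passed in these refits are not given here, so these counts have no background beside them. The 95% interval of the log2 fold change lay within -1 to 1 for 7 of the 9, which was so for 52.0% of all tested genes. The median log2 fold change of the 9 was 0.45, beside 0.03 for all tested genes, and the median absolute value was 0.45, beside 0.57. Fold changes are DM over GM, and expression is given as CPM (counts scaled to library size) on TMM-normalised library sizes, as mean ± SD over 3 samples unless single samples are named.

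Library totals in the gene table ranged from 35615864 to 40305237 counts. Of 13 myogenic markers tested, 9 were called (7 higher, 2 lower). The 2 lower were MYF5 and PAX3, and PAX3 passed the count minimum through its GM samples alone, so its call partly reflects that minimum. Over all tested genes 25.3% were called (15.0% higher, 10.3% lower), which is also the comparison for the marker lists that follow. All but PAX3, with at most 6 counts in a GM sample and none in DM, were detected in all 6 samples. The summed RPKM (counts scaled to gene length and library size) of these markers ranged from 1267 to 1428 in GM samples and from 2031 to 2891 in DM samples. Fibroblast markers were present as well. Their sum over 10 genes ranged from 493 to 509.8 in GM samples and from 1213 to 1762 in DM samples, and 6 of the 10 tested were called (5 higher, 1 lower). For 10 endothelial markers the sum ranged from 5.19 to 6.03 RPKM in GM samples and from 5.12 to 8.96 RPKM in DM samples. Of 9 tested, 4 were called (1 higher, 3 lower). The 3 lower ones, CDH5, TIE1 and VWF, had at most 54 counts in a sample, and the groups overlapped for CDH5. For 10 immune markers the sum ranged from 4.49 to 5.97 RPKM in GM and from 3.53 to 6.21 RPKM in DM samples. Of 5 tested, 2 were called (1 higher, 1 lower). PTPRC, which defines blood cells, had at most 2 counts in any sample. CD14, the one called higher, had 54, 45 and 34 counts in GM samples and 335, 274 and 177 in DM samples. CD68, the one called lower, had 237, 231 and 175 and then 105, 95 and 76. For 10 mural and smooth muscle markers, some of which MuSCs also express, the sum ranged from 1657 to 1828 RPKM in GM samples. In DM samples it ranged from 1454 to 1830 RPKM, and 2 of 10 were called, both higher. Most of this sum was DES and ACTA2, with GM means of 1052 and 599 RPKM, whereas RGS5 had at most 4 counts in a sample. The 2 called were KCNJ8 and ABCC9. KCNJ8 had 16, 13 and 5 counts in GM samples and 612, 511 and 344 in DM samples. For ABCC9 these were 98, 73 and 73 and then 1828, 1898 and 1477. CSPG4 and NOTCH3, which were not called, had at least 1962 counts in each sample. DES is on the myogenic list too and made up most of that sum in GM samples, so the 2 sums are not independent. DM replicate 3 stood apart from DM replicates 1 and 2. Its chi-square per degree of freedom over genes was 40.5 and 41.4 against them, whereas they differed by 11.7 from each other. Its myogenic sum was 2891 RPKM against 2031 and 2261, and its fibroblast sum was 1213 RPKM against 1762 and 1744. Most of the fibroblast sum was DCN (DM mean 1043 RPKM), with 59730 counts in DM replicate 3 against 92348 and 94568. Counts of PDGFRA, LUM, MFAP5 and CLEC3B were also lowest of the DM samples there. DPT, PI16 and LY6E were highest there, so the sum does not describe each marker. In bulk RNA, a change in the share of a cell type and a change in RNA per cell cannot be told apart.

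Levels of different genes were compared on the deposited RPKM scale. PRRX1 led in both groups, with 170.0 ± 10.2 RPKM in GM samples and 231 ± 5.19 RPKM in DM samples. This placed it at the 96.6th percentile of tested genes in GM samples and the 98.0th in DM samples. SNAI2 (74.4 ± 3.17 RPKM) and TWIST1 (74.0 ± 6.82 RPKM) followed in GM samples, where their ranges overlapped. In DM samples SNAI2 reached 113 ± 5.12 RPKM and TWIST1 82.8 ± 9.90 RPKM, and their ranges were apart. RPKM divides by model length, which is 983 bases for PRRX1 and 1988 bases for SNAI2. In CPM, without that division, PRRX1 (228 to 243) and SNAI2 (225 to 237) overlapped in DM samples. In GM samples they were apart in CPM as well, at 154 to 173 and 136 to 147. The TWIST1 model is 606 bases long, which equals its span on the chromosome and is a whole number of codons, so its RPKM rests on a shorter model than the others.

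A middle group was formed by ZEB1, TCF4 and ZEB2, in that order in GM samples, with 29.9 ± 0.856, 24.3 ± 0.171 and 21.7 ± 1.48 RPKM and no overlap between neighbours. In DM samples the order was ZEB2, TCF4 and ZEB1, with 27.7 ± 1.39, 26.6 ± 3.36 and 22.6 ± 1.36 RPKM, and each overlapped its neighbour. The lowest of the 9 were SNAI1, TWIST2 and OSR1, with GM means of 9.71, 7.21 and 5.27 RPKM that did not overlap between neighbours. In DM samples TWIST2 stood above SNAI1, at means of 11.2 and 7.45 RPKM, and SNAI1 overlapped OSR1. Thus SNAI2 exceeded SNAI1 and TWIST1 exceeded TWIST2 in each of the 6 samples, while ZEB1 and ZEB2 changed places.

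**Figure D1:**
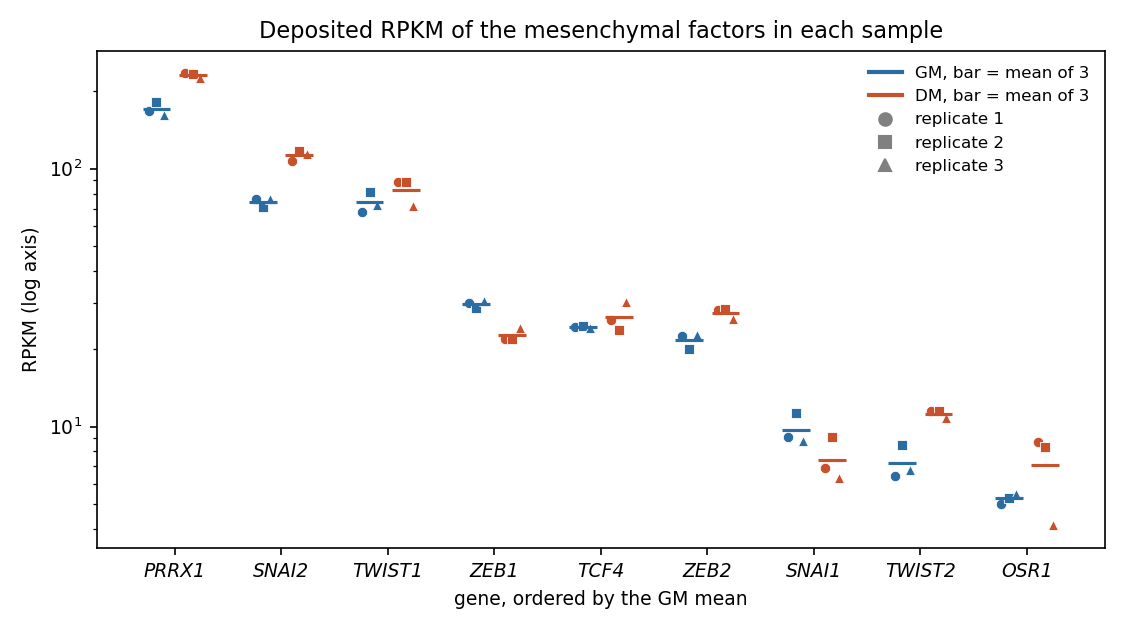
RPKM (log axis) of the 9 tested factors in each of the 3 GM (blue) and 3 DM (orange) samples, ordered by the GM mean, with bars for group means and one marker shape per replicate number. PRRX1 lies highest in both groups, ZEB1 and ZEB2 change places, and the OSR1 value of DM replicate 3 (4.14 RPKM) lies below the GM samples; TCF21 is not drawn.

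SNAI2 (Slug, ENSBTAG00000013227) lies on chromosome 14 from 21577309 to 21580910 on the minus strand in the cattle coordinates of the table, which names no genome build. It encodes a zinc finger repressor. Its level was 146, 136 and 147 CPM in GM replicates 1, 2 and 3 and 225, 237 and 233 CPM in DM replicates 1, 2 and 3. The groups did not overlap, as for 68.8% of all tested genes. It rose 1.62-fold, from a mean of 143 ± 5.84 CPM to 232 ± 6.42 CPM (log2 fold change 0.70, standard error 0.060, 95% interval 0.56 to 0.83, adjusted p = 2.56e-06 from edgeR).

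SNAI1 (Snail, ENSBTAG00000014554, chromosome 13, 78766068 to 78772194, plus strand) is the founding member of the same family. It was measured at 14.9, 18.7 and 14.5 CPM in GM replicates 1, 2 and 3 and at 12.4, 15.9 and 11.1 CPM in DM replicates 1, 2 and 3. Replicate 2 was the highest of its group in both media, and the groups overlapped. The log2 fold change was -0.29 (95% interval -0.62 to 0.04, adjusted p = 0.115 from edgeR). It was -0.43 without DM replicate 2 (adjusted p = 0.0229 from edgeR), -0.16 without GM replicate 2 and -0.17 without DM replicate 3. SNAI1 was therefore not shown to differ beyond its replicate spread, and a fall to 0.652 of the GM level lies within its interval.

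TWIST2 (Dermo1, ENSBTAG00000021444, chromosome 3, 118630617 to 118690526, plus strand) is the less abundant TWIST gene. Values were 8.56, 11.4 and 9.07 CPM in GM samples and 16.8, 16.2 and 15.4 CPM in DM samples, without overlap. The group means were 9.67 and 16.1 CPM, and the rise was 0.74 on the log2 scale (standard error 0.12, 95% interval 0.46 to 1.01, adjusted p = 0.000377 from edgeR). TWIST1 (ENSBTAG00000046922, chromosome 4, 27854574 to 27855179, minus strand) is its relative and is required for limb and head mesenchyme. In GM samples it measured 39.9, 47.9 and 42.3 CPM, and in DM samples 56.7, 54.5 and 44.6 CPM. DM replicate 3 lay within the GM range. Its log2 fold change of 0.26 (95% interval 0.03 to 0.49) had an adjusted p-value of 0.0453 from edgeR. This was 0.184 when only library size was used for scaling. Without GM replicate 1 or 3 or DM replicate 1 or 2 it lay between 0.101 and 0.164, and without DM replicate 3 the log2 fold change was 0.37 with an adjusted p-value of 0.000254 from edgeR.

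The ZEB genes moved in opposite directions, each with its own test passed. ZEB1 (ENSBTAG00000020053, chromosome 13, 34063175 to 34261299, minus strand) encodes a large zinc finger and homeodomain repressor. It was at 98.0, 94.8 and 100.1 CPM in GM samples and 78.2, 74.9 and 84.4 CPM in DM samples, so that all DM samples were below all GM samples. It fell by 0.30 on the log2 scale (standard error 0.066, 95% interval -0.45 to -0.16, adjusted p = 0.00228 from edgeR). ZEB2 (ENSBTAG00000012615, chromosome 2, 52275074 to 52406207, plus strand), of the same build and also known as SIP1, went from 85.8, 76.6 and 86.4 CPM to 118, 115 and 106 CPM. It rose by 0.45 on the log2 scale (standard error 0.072, 95% interval 0.29 to 0.61, adjusted p = 0.000275 from edgeR), again without overlap.

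PRRX1 (ENSBTAG00000004570, chromosome 16, 39016045 to 39091099, plus strand), a marker of limb mesenchyme, was at 158, 173 and 154 CPM in GM samples. In DM samples it was at 243, 233 and 228 CPM. The groups were apart, and the rise of 0.54 on the log2 scale (standard error 0.065, 95% interval 0.39 to 0.68, adjusted p = 3.23e-05 from edgeR) amounts to 1.45-fold.

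OSR1 (ENSBTAG00000008113, chromosome 11, 79487139 to 79494238, plus strand), which marks connective tissue precursors of developing muscle, had the highest coefficient of variation of the 9 among DM samples (36.4%). It measured 9.31, 9.85 and 10.2 CPM in GM samples, and 17.7, 16.2 and 8.22 CPM in DM replicates 1, 2 and 3. DM replicates 1 and 2 lay above all GM samples and DM replicate 3 below them. With all samples the log2 fold change was 0.52 (standard error 0.23, 95% interval 0.01 to 1.03, unadjusted p = 0.0469, adjusted p = 0.0711 from edgeR). Without DM replicate 3 it was 0.80 (standard error 0.11, adjusted p = 2.97e-07 from edgeR), and without DM replicate 1 it was 0.33. With all 6 samples kept, the adjusted p-value was 0.0273 in DESeq2 and 0.0475 in edgeR with an RPKM filter (genes reaching 1 RPKM in over 50% of the samples). The lower fibroblast and higher myogenic marker sums of DM replicate 3 are given above, and their part in the OSR1 value was not tested.

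TCF4 (ENSBTAG00000016462, chromosome 24, 55056433 to 55435276, minus strand) is the bHLH E protein also called E2-2. It is not TCF7L2, the Wnt effector that shares the older name TCF4 and is used to mark muscle fibroblasts. Its 3 GM samples lay close together at 53.2, 53.9 and 53.1 CPM. DM samples were at 61.9, 54.9 and 71.2 CPM, with the lowest only just above GM. The log2 fold change was 0.23 (95% interval 0.03 to 0.43, adjusted p = 0.0444 from edgeR). It was 0.14 without DM replicate 3 (adjusted p = 0.112 from edgeR), 0.33 without DM replicate 2 and 0.13 with library size alone (adjusted p = 0.217 from edgeR). Leaving out DM replicate 1 or any 1 GM sample also raised the adjusted p-value above 0.05 (0.0760 to 0.116 from edgeR). TCF21 (ENSBTAG00000021827, chromosome 9, 73063429 to 73066402, plus strand) had 0, 1 and 7 counts in GM replicates 1, 2 and 3 and 0 counts in each DM sample, which allows up to 3 counts per sample by counting error. No fold change was computed for it.

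**Figure D2:**
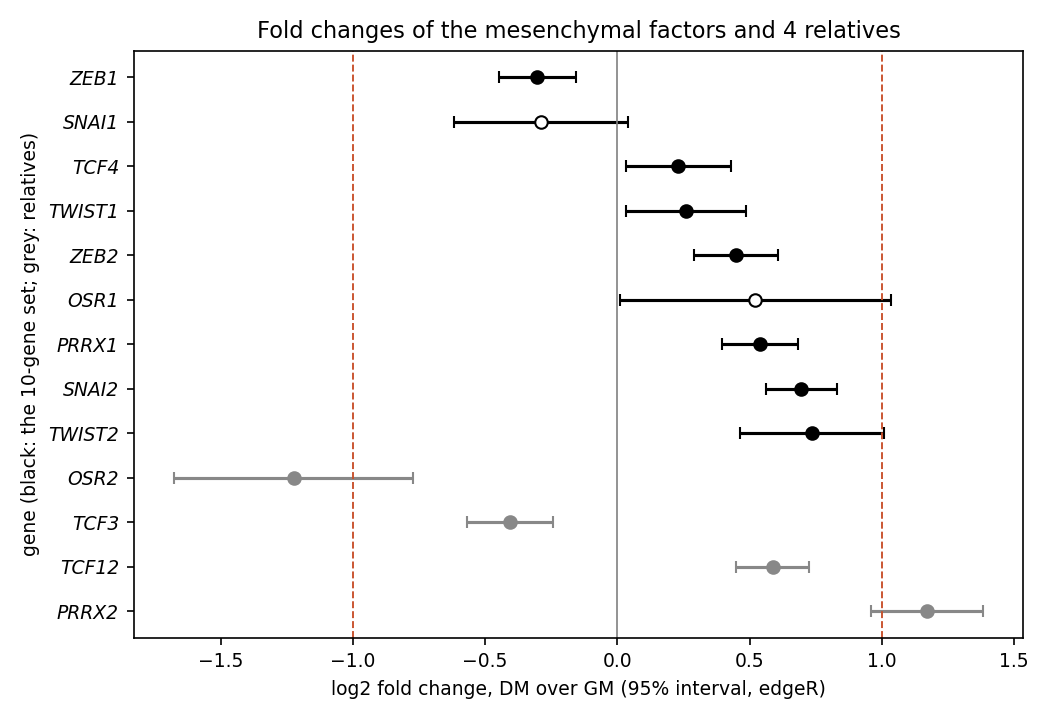
Log2 fold change of DM over GM samples with its 95% interval from edgeR for the 9 tested factors (black) and 4 relatives (grey), with filled points for an adjusted p-value under 0.05 and dashed lines at -1 and 1. The 9 points lie between -0.30 and 0.74, while PRRX2 (1.17) and OSR2 (-1.22) lie beyond the dashed lines.

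**Figure D3:**
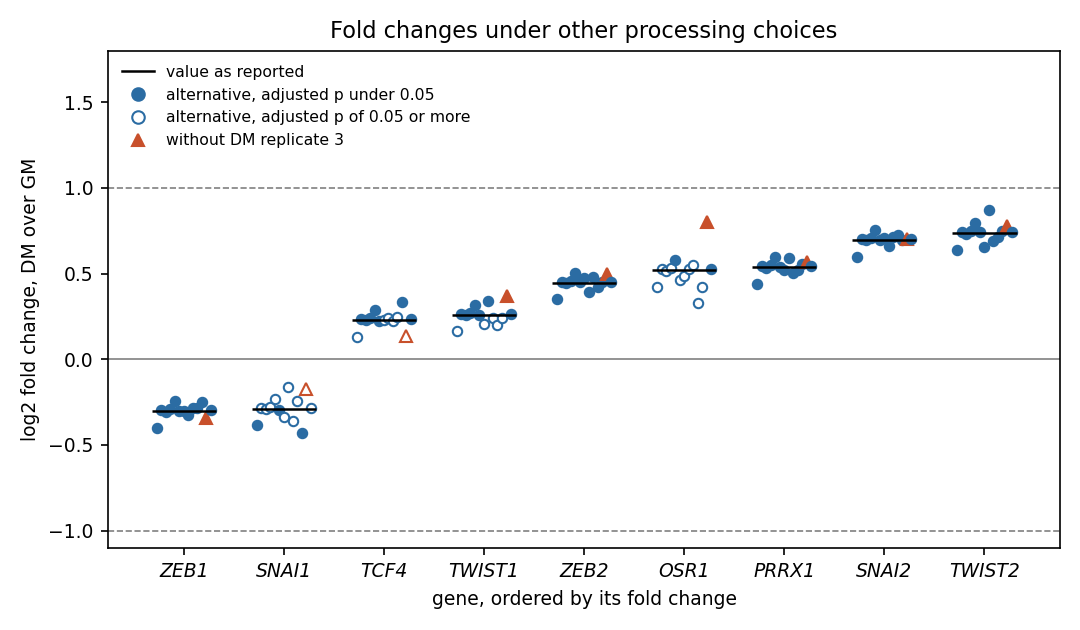
Log2 fold change of DM over GM for each of the 9 tested factors under other normalizations, filters and tests and with single samples left out (points, filled for an adjusted p-value under 0.05), with the reported value as a black line, the fit without DM replicate 3 as an orange triangle and dashed lines at -1 and 1. No point crosses 0 or a dashed line, and OSR1 spreads widest, from 0.33 to 0.80.

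The mRNA table lists 12 transcripts of the 10 genes, of which 11 were tested. Most of the genes have a single transcript there, with the counts of the gene. OSR1 and TCF4 have a pair each, and reads shared by both transcripts of a gene were counted for each of them, so the pair is not independent. At the same thresholds edgeR called 0 of 11 transcripts, against 25.6% of all tested mRNAs (15.5% higher, 10.1% lower), and DESeq2 called 0. At an unadjusted p-value under 0.05 there were 7, against 67.9% of all tested mRNAs. At an adjusted p-value under 0.05 there were 6 (5 higher, 1 lower), against 64.6% of all tested mRNAs (32.3% higher, 32.3% lower). DESeq2 gave 8 higher and 1 lower at that threshold, and so did edgeR with the RPKM filter. The shares of all mRNAs that passed in those fits are not given here, so these counts have no background beside them. Samples did not overlap for 70.2% of all tested mRNAs. The TWIST1 transcript, with the same counts as its gene, had an adjusted p-value of 0.0557 from edgeR in the mRNA fit. It was 0.0433 in DESeq2 and 0.0195 in edgeR with the RPKM filter, so this transcript lies near the threshold. The TCF4 transcripts ENSBTAT00000031010 (2116 bases) and ENSBTAT00000031006 (1798 bases) had log2 fold changes of 0.22 (adjusted p = 0.0461 from edgeR) and 0.19 (adjusted p = 0.122 from edgeR). For the OSR1 transcripts the values were 0.50 for ENSBTAT00000010670 and 0.50 for ENSBTAT00000066336, with adjusted p-values of 0.0881 and 0.0759 from edgeR. DESeq2 gave adjusted p-values of 0.0412 and 0.0323 for them, and without DM replicate 3 edgeR gave 1.43e-07 and 9.10e-08.

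The balance within pairs of related genes was computed for each sample as the share of the first gene in the RPKM of both, which depends on neither library size nor TMM factors. GM and DM samples were apart in all 5 pairs. Among single tested genes, 68.8% had groups that did not overlap, and the share over other gene pairs was not computed. An exact two-sided permutation test gave p = 0.1 for each pair, and the Benjamini-Hochberg value over the 5 pairs was 0.1 as well. This is the lowest value possible with 3 samples in each medium, so none could pass the threshold. ZEB1 made up 57.2, 59.1 and 57.5% of the ZEB pair in GM samples and 43.6, 43.2 and 48.1% in DM samples. The majority of ZEB RPKM was therefore ZEB1 in each GM sample and ZEB2 in each DM sample. SNAI1 took 11.6 ± 1.91% of the SNAI pair in GM samples and 6.18 ± 0.996% in DM samples. TWIST1 took 91.2 ± 0.481% of the TWIST pair in GM samples and 88.0 ± 0.932% in DM samples, a difference of -3.16 percentage points that was -5.61 on raw counts without the length of the 606-base model. The dominant gene of the SNAI and TWIST pairs was the same in both media.

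The other pairs hold a relative outside the set. PRRX2, the close relative of PRRX1, was called higher, with 27.3 ± 2.69 CPM in GM and 61.4 ± 5.72 CPM in DM samples (log2 fold change 1.17, adjusted p = 1.78e-06 from edgeR). PRRX1 took 83.3 ± 1.35% of that pair in GM samples and 76.3 ± 1.39% in DM samples. OSR2 was called lower, with 11.0 ± 0.822 and 4.70 ± 1.42 CPM (log2 fold change -1.22, adjusted p = 0.000369 from edgeR). OSR1 made up 45.8, 43.7 and 45.1% of the OSR pair in GM samples and 73.5, 74.1 and 70.6% in DM samples. DM replicate 3, the lowest DM sample for OSR1, was also the lowest for OSR2 (115 counts, against 197 and 189), and its share lay close to that of the other DM samples.

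**Figure D4:**
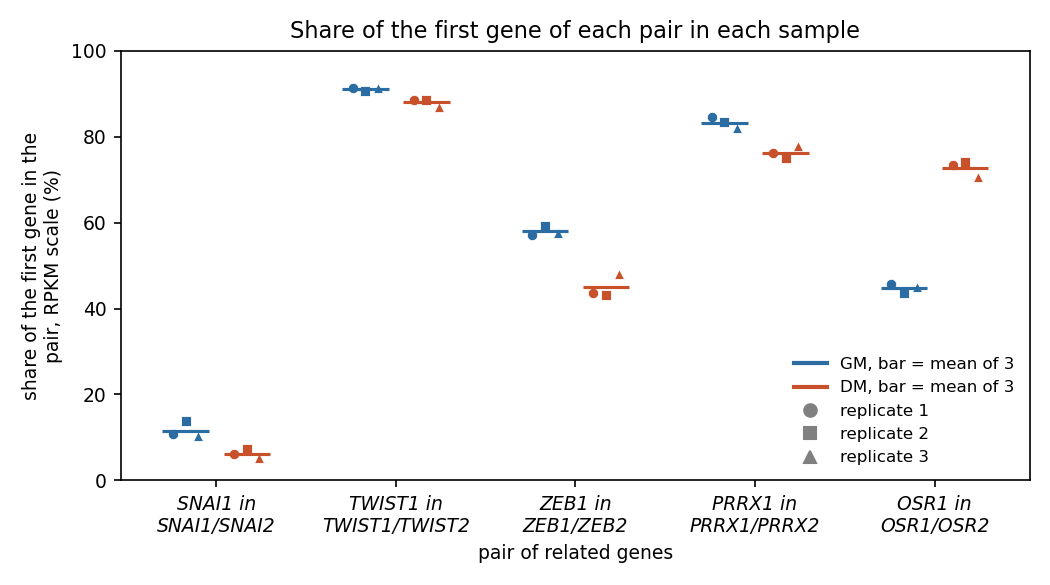
Share of the first gene in the summed RPKM of each pair (percent, linear axis from 0 to 100) for each GM (blue) and DM (orange) sample, with bars for group means. In the ZEB pair the GM samples lie at 57.2 to 59.1% and the DM samples at 43.2 to 48.1%, and in the OSR pair the shares move the other way, from a mean of 44.9% to 72.7%.

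Other mesenchymal factors were compared as a list of 24 relatives, of which 21 were listed and 16 tested. edgeR called 7 (3 higher, 4 lower), which is 43.8% beside 25.3% of all tested genes, and the median was -0.40 on the log2 scale. The largest falls among the calls were those of FOXC2 (-2.92), FOXS1 (-2.64) and HMGA2 (-2.45), the first a forkhead factor of mesenchyme and the last a chromatin protein of proliferating embryonic cells. HMGA2 fell from 21.1 ± 1.31 to 3.85 ± 2.34 CPM. MSC (musculin), a bHLH repressor of muscle precursors, fell by 0.71 on the log2 scale (adjusted p = 6.35e-06 from edgeR) without reaching the fold limit. SCX (scleraxis, of tendon precursors) and GSC were called higher at low levels, with DM means of 0.565 and 0.548 CPM. TCF7L2 rose by 0.55 and TBX15 by 0.62 on the log2 scale, with adjusted p-values of 0.000193 and 0.000789 from edgeR. SNAI3, the remaining SNAI gene, had 0 counts in each GM sample and at most 2 in a DM sample.

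Partners and antagonists of bHLH factors were tested for 11 of 12 genes, and 5 were called (2 higher, 3 lower), or 45.5% beside 25.3% of all tested genes. Among the 3 E proteins, TCF12 rose by 0.59 on the log2 scale (standard error 0.062, adjusted p = 1.25e-05 from edgeR) and TCF3 fell by 0.41 (standard error 0.073, adjusted p = 0.000612 from edgeR), while TCF4 had the smallest estimate (0.23). On the RPKM scale TCF3, TCF4 and TCF12 stood at means of 32.4, 24.3 and 32.9 in GM samples and at 22.8, 26.6 and 46.2 in DM samples. ID proteins bind E proteins and keep them from DNA. ID1 was at 104 ± 16.7 CPM in GM and 8.88 ± 5.15 CPM in DM samples and fell by 3.55 on the log2 scale (adjusted p = 9.02e-06 from edgeR). ID3 fell by 1.67 and ID2 by 0.79 on the log2 scale. Of the muscle bHLH factors, MYF6 (3.97) and MYOG (1.66) were called higher and MYF5 (-2.70) lower, and MYOD1 rose by 0.90 without reaching the limit.

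Corepressors and regulators of protein stability that SNAI and ZEB proteins use were tested for 21 of 24 genes. edgeR called 3 (1 higher, 2 lower), or 14.3% beside 25.3% of all tested genes. At an adjusted p-value under 0.05 alone, 12 were lower and 3 higher, where 31.4% of all tested genes were lower and 31.6% higher. EZH2, the histone methyltransferase of the Polycomb complex, fell by 2.12 and PRMT1 fell by 1.08 on the log2 scale. LOXL2, a lysyl oxidase relative, rose by 1.66. The ZEB corepressors CTBP1 and CTBP2 fell by 0.17 (adjusted p = 0.0348 from edgeR) and 0.52 (adjusted p = 3.80e-05 from edgeR), and KDM1A, a histone demethylase bound by SNAI1, fell by 0.95.

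Epithelial genes, the classical targets of these repressors, were tested for 16 of 23 genes and lay at low levels. The summed RPKM of the 22 listed ranged from 25.6 to 27.4 in GM samples and from 18.1 to 30.4 in DM samples, beside 22286 to 22999 and 41872 to 46573 for 24 mesenchymal genes. CDH1 (E-cadherin), with a GM mean of 13.6 RPKM, was called lower at 34.8 ± 3.58 CPM in GM and 7.75 ± 1.10 CPM in DM samples (log2 fold change -2.17, adjusted p = 1.17e-07 from edgeR). Together with JUP (GM mean 9.60 RPKM) it made up most of the epithelial sum in GM samples. On the mesenchymal list VIM (4430 RPKM) and COL1A1 (3340 RPKM) had the largest GM means, so both sums rest largely on a few genes. In all, 8 epithelial genes were called higher and 2 lower, beside 15.0% and 10.3% of all tested genes. The median log2 fold change of the 16 tested was 1.82 (13 positive, 3 negative). The 3 largest calls rest on few counts and passed the count minimum through their DM samples. Count and median therefore partly reflect that minimum and are not read as the list's direction. KRT8 had 0, 1 and 0 counts in GM samples and 18, 22 and 21 in DM samples, KRT18 had 0, 0 and 1 and then 9, 2 and 7, and PKP1 had 0, 1 and 1 and then 8, 6 and 4.

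Of the 24 mesenchymal genes, all were tested and 13 were called (11 higher, 2 lower), or 54.2% beside 25.3% of all tested genes (15.0% higher, 10.3% lower). Their median was 0.78 on the log2 scale. The largest rises were those of FAP (2.31), COL3A1 (2.24) and MMP2 (2.14), and FN1 (fibronectin) rose by 1.97 on the log2 scale. CDH2 (N-cadherin) was called lower, from 59.4 ± 2.12 to 21.7 ± 0.975 CPM, and VIM (vimentin) had a log2 fold change of -0.15 (adjusted p = 0.0600 from edgeR). PDGFRA, a receptor of fibroblast precursors, is on both the mesenchymal and the fibroblast list and had a log2 fold change of 0.58.

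**Figure D5:**
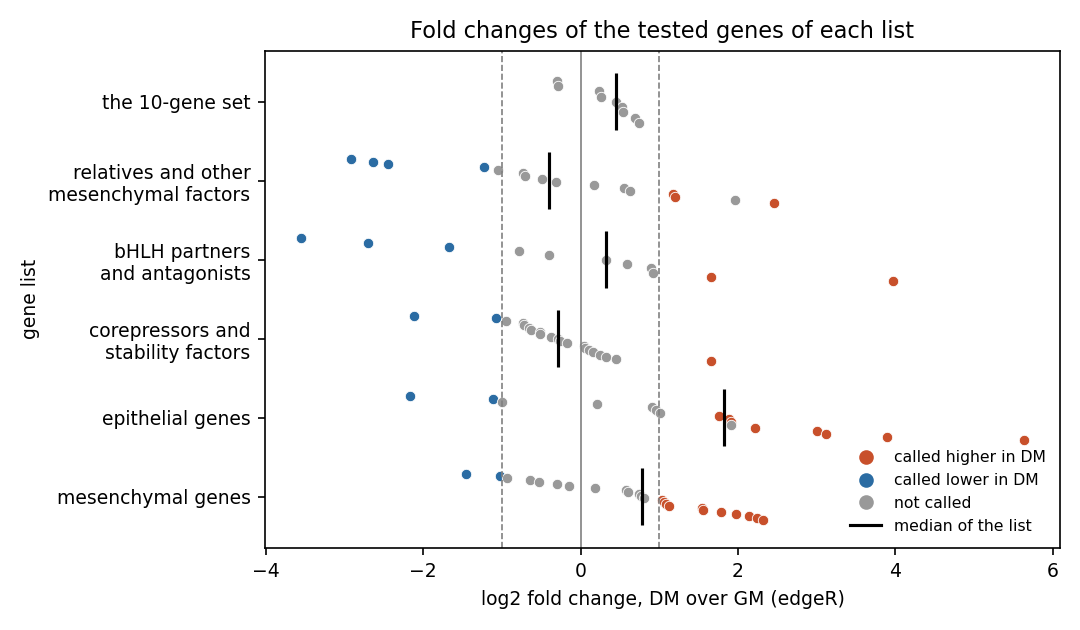
Log2 fold change of DM over GM for each tested gene of 6 lists, with orange for genes called higher, blue for genes called lower, grey for genes not called, a black bar for the median of the genes tested and dashed lines at -1 and 1. All 9 points of the set lie between the dashed lines, whereas each other list has genes on both outer sides.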

How the data were processed

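PolyA-selected RNA of 3 GM and 3 DM samples was sequenced by the study. The authors aligned reads with HISAT2 to a buffalo genome and deposited raw counts per gene and per mRNA transcript. The deposited RPKM values equal the authors' counts divided by the Length column and the summed counts of each sample. Rows carry cattle Ensembl identifiers with no build named, and the submitters' notes list Bowtie and mouse builds, which match neither. The strand setting of the counting is not given in the sources used here. The authors' lists of differential features (log2 fold changes, p-values, q-values) and the ncRNA table were not used.

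Counts were tested with edgeR 4.0.16 in R 4.3.3 (glmQLFit, glmQLFTest, TMM, Benjamini-Hochberg over all tested features), with at least 10 counts in total and thresholds from the study's methods. Standard errors came from the F statistic. Alternatives included DESeq2 1.42.0, other normalizations and filters, a replicate block and each sample left out. Python 3.11.15, pandas 2.3.3 and scipy 1.17.1 gave summaries and exact tests. The script was tested on simulated data. Members and lists were chosen with earlier results of these data known. Named genes are the 10 factors, tested relatives and bHLH partners, CDH1, CDH2, VIM, FN1, CTBP1, CTBP2 and up to 3 called genes per other list with the largest change. The marker genes, KDM1A, PDGFRA, JUP and COL1A1 beside them were named as examples after their values were seen. Intervals cover the spread between samples, and the limit for 0 counts covers counting error only.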

Additional observations from a re-analysis of the deposited data

How the results depend on the processing

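The finding that 0 of 9 factors and 0 of 11 transcripts were called held in each alternative that kept the limit on fold change, including DESeq2 and each sample left out in turn (0 to 0 called). With an adjusted p-value under 0.05 alone, 6 genes were called higher, 1 lower and 6 transcripts were called. SNAI2, TWIST2, ZEB2 and PRRX1 stayed higher and ZEB1 lower at an adjusted p-value under 0.05 in all alternatives run of the test against no change, with log2 fold changes of 0.60 to 0.75, 0.64 to 0.87, 0.35 to 0.50, 0.44 to 0.60 and -0.40 to -0.25. TWIST1 (0.16 to 0.37), TCF4 (0.13 to 0.33), OSR1 (0.33 to 0.80) and SNAI1 (-0.43 to -0.16) kept their sign but crossed the threshold in some, and the cause was not tested. Of 117 refitted gene values, 100 stayed on their side, 11 lost and 6 gained an adjusted p-value under 0.05. Library size alone moved the median of all mRNAs from 0.03 to -0.12.

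The replicate numbers gave no sign of pairing. Correlations between same-numbered samples were -0.0467 to -0.00813, and 0 of 6 samples correlated best with its own number. No GM and DM sample correlated above 0.0250, so these small values cannot exclude pairing. With a replicate block no factor was called. At an adjusted p-value under 0.05 there were 6 higher and 2 lower, as SNAI1 passed (-0.29, adjusted p = 0.0335 from edgeR). The share of all tested genes that passed in that fit is not given here.

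Lists gave other counts of calls under other rules, and so did the whole gene table. With no minimum fold change these were 13 relatives, 10 bHLH partners, 15 corepressors and 22 mesenchymal genes, beside 9813 of 15576 tested genes. When edgeR tested for changes beyond 2-fold they were 3 relatives, 5 epithelial and 8 mesenchymal genes, beside 2293 of 15576. Under the RPKM rule they were 4 of 11 relatives and 2 of 3 epithelial genes tested, beside 2197 of 11587. The share of TWIST1 differed by -5.61 percentage points on raw counts, against -3.16 per length. Marker lists ranged from 0 to 4 endothelial, 0 to 4 mural, 0 to 2 immune, 5 to 8 fibroblast and 8 to 12 myogenic calls.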
